A study of Homo sapiens with 2 samples.

Results

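Chromosome 19 held 1599 of the 20085 PML-RARA antibody peaks in the authors' merged peak list from NB4 cells, and every peak on the chromosome was taken, with no choice by signal. NB4 is an established line of human acute promyelocytic leukemia cells and has the fusion of PML, a nuclear body protein, to RARA, the retinoic acid receptor alpha. The chromatin was profiled by CUT&Tag, in which an antibody guides a transposase that cuts and tags the DNA beside the bound protein. The series has 1 group of 2 replicates, NB4 cells grown in serum-containing medium with no treatment named, and 1 list merged from both. That list gives no value for either replicate, so neither a spread between replicates nor a test between them can be had, the sequencing depth is unknown, and every comparison below is between regions of the same list. An exact binomial interval (Clopper-Pearson, 95%) beside a share covers counting error only and treats peaks as independent.

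Chromosome 19 is the most gene-dense human chromosome. It is known for large families that arose by local duplication, above all the KRAB zinc finger genes, whose proteins bind mostly to transposable elements and recruit the co-repressor KAP1. Near the end of its long arm, in band 19q13.42, lies the leukocyte receptor complex, a set of immune receptor families (LILR, KIR and LAIR genes). The arm ends with band 19q13.43, where 67 of 92 protein-coding genes are zinc finger genes by symbol.

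The promoters of 4 genes with an hg19 model are shown as examples, 3 with a peak at the start site and 1 without. KEAP1 encodes the sensor that directs the stress factor NRF2 to degradation, and ZNF443, ZNF333 and ZNF562 encode zinc finger proteins. The transcription start sites (TSSs) of the first 3 lay inside a peak on hg19, and the nearest peak to ZNF562 was 93072 bp away. The 250 bases before each RefSeq start (GRCh38.p14, 5′ to 3′ on the gene's strand) are printed with CG dinucleotides in capitals. They come from chr19:10503357-10503606 (minus strand) for KEAP1, chr19:12441022-12441271 (minus strand) for ZNF443, chr19:14689798-14690047 (plus strand) for ZNF333 and chr19:9675101-9675350 (minus strand) for ZNF562.
KEAP1: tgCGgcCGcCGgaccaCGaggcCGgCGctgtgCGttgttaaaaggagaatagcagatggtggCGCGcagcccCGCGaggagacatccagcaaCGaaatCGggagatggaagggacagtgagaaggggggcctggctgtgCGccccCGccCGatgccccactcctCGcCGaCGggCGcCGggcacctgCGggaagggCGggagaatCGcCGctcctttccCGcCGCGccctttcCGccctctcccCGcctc
ZNF443: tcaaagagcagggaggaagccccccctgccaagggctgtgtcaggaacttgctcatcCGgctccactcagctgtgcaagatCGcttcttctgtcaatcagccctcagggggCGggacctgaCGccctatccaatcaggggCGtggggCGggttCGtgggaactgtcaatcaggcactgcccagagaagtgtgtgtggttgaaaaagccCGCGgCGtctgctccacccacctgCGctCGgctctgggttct
ZNF333: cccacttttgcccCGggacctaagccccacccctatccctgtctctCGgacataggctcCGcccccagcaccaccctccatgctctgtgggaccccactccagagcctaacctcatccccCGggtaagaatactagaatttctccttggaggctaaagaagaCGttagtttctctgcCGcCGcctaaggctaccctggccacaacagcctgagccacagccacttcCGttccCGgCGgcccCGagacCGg
ZNF562: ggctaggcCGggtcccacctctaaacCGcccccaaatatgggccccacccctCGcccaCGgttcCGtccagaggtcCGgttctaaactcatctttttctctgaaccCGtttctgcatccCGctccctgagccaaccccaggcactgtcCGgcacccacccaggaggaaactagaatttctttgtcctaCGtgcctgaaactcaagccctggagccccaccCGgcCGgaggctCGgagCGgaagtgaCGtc
KEAP1 has 30 CG dinucleotides in this window, ZNF443 and ZNF333 have 12 each, and ZNF562, the gene with no peak near it, has 15. The median over 15843 coding promoters of the RefSeq table was 17 and over the 1185 from chromosome 19 it was 16. None of the 4 windows holds AGGTCA, the repeated unit of retinoic acid receptor sites, or CCGGAA, a core of ETS factor sites that itself contains a CG; both were searched on both strands, and 10.3% and 19.3% of all coding promoter windows hold them.

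Each peak has a total signal, the coverage summed over its bases, and a maximum signal, the highest coverage within it; both are the authors' values for that peak. Per Mb of hg19, chromosome 19 carried 27.0 peaks, first of 23 chromosomes, against 6.20 on the others together, a ratio of 4.36. The next were chromosome 17 with 16.5 and chromosome 20 with 13.5 per Mb. With centromeric, variable and stalk bands left out of the lengths, chromosome 19 had 34.2 and the order below it changed. Chromosome 22 then had 17.27, chromosome 17 had 17.23, chromosome 16 had 14.8 and chromosome 20 had 14.4. Peaks covered 3.53% of chromosome 19 (2089 kb) and 0.725% of the others. Counted per protein-coding gene the chromosome was not first: it held 1.10 peaks per gene over 1451 genes, rank 11, beside 0.997 on the others, 1.14 on chromosome 17, 1.28 on chromosome 22 and 1.35 on chromosome 16.

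**Figure D1:**
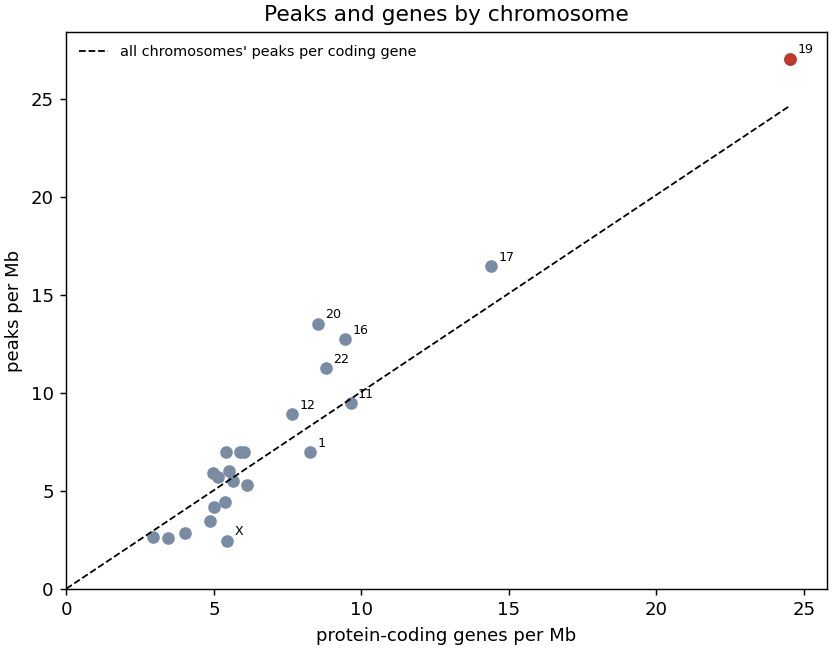
Peaks per Mb (y axis) against protein-coding genes per Mb (x axis) for 23 chromosomes, 1 point each, with the dashed line at the peaks per coding gene of all chromosomes together; dense or outlying chromosomes are named. Chromosome 19 (red) is far out on both axes, at 27.0 peaks per Mb, and lies a little above the line.

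Single peaks on chromosome 19 were only slightly larger than elsewhere. Their median total signal was 7181 (interquartile range 3825 to 16048), against 6429 (3752 to 13713) on the other chromosomes. The median maximum was 22 in both sets, and the median length was 979 bp against 888 bp. By total signal 199 peaks were in the top 10% of the list, 12.4% of the chromosome's peaks (interval 10.9% to 14.2%) where the whole list has 10.0%. Peaks of at least 4 kb numbered 53, or 3.31%, with 2.13% in the whole list. Chromosome 19 peaks made up 18 of the 100 with the highest total and 22 of the 100 with the highest maximum.

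Peaks on chromosome 19 lay close to each other. The median gap between neighbours was 7106 bp, against 15900 bp on the others. When neighbours with gaps of at most 10 kb were joined into runs, 425 peaks (26.6%) were in runs of 8 or more, with 14.1% in the whole list. These peaks came from 33 runs and were counted together within each, so no interval is given for this share. The order of chromosomes by this share was not that of density: chromosome 4, with 2.86 peaks per Mb, had 24.3% in such runs, chromosome 10, with 7.002 per Mb, had 22.97%, and chromosome 17, with 16.5 per Mb, had 15.7%.

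Along the chromosome the peaks fell into a few dense blocks. Of 60 bins of 1 Mb, 5 were mostly centromeric, and the other 55 held a median of 23 peaks (interquartile range 9 to 42, highest 104), or 25 per Mb with the short last bin scaled to its length. The 11 bins with 50 or more peaks held 776 peaks, 48.5% of the chromosome's. At the other end 12 bins held under 5, and 2 held none, those at 29000000 to 30000000 and 31000000 to 32000000. The short arm had 38.9 peaks per Mb and the long arm 21.2, a ratio of 1.83, and bins of the short arm had a median of 40 peaks against 15.

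The densest bin, 10000000 to 11000000 in 19p13.2, held 104 peaks and 10.9% of the chromosome's total signal. Genes are named beside peaks from general knowledge of hg19, not from a computed overlap. This bin is known to hold ICAM1 and ICAM3, which encode adhesion molecules of leukocytes, TYK2, the kinase of interferon receptors, and CDC37, a kinase chaperone. The bin at 47000000 to 48000000 held 97 peaks and 7.16% of the signal, and the bin at 8000000 to 9000000 held 89 peaks and 13.05%. The bins at 48000000 to 49000000 and 17000000 to 18000000 followed with 74 and 64 peaks. The 3 bins of highest signal together held 31.1% of the chromosome's signal and the 5 highest held 42.0%. Dense and sparse bins lay side by side: the bin at 9000000 to 10000000, which holds the TSS of ZNF562, had 14 peaks between neighbours with 89 and 104.

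**Figure D2:**
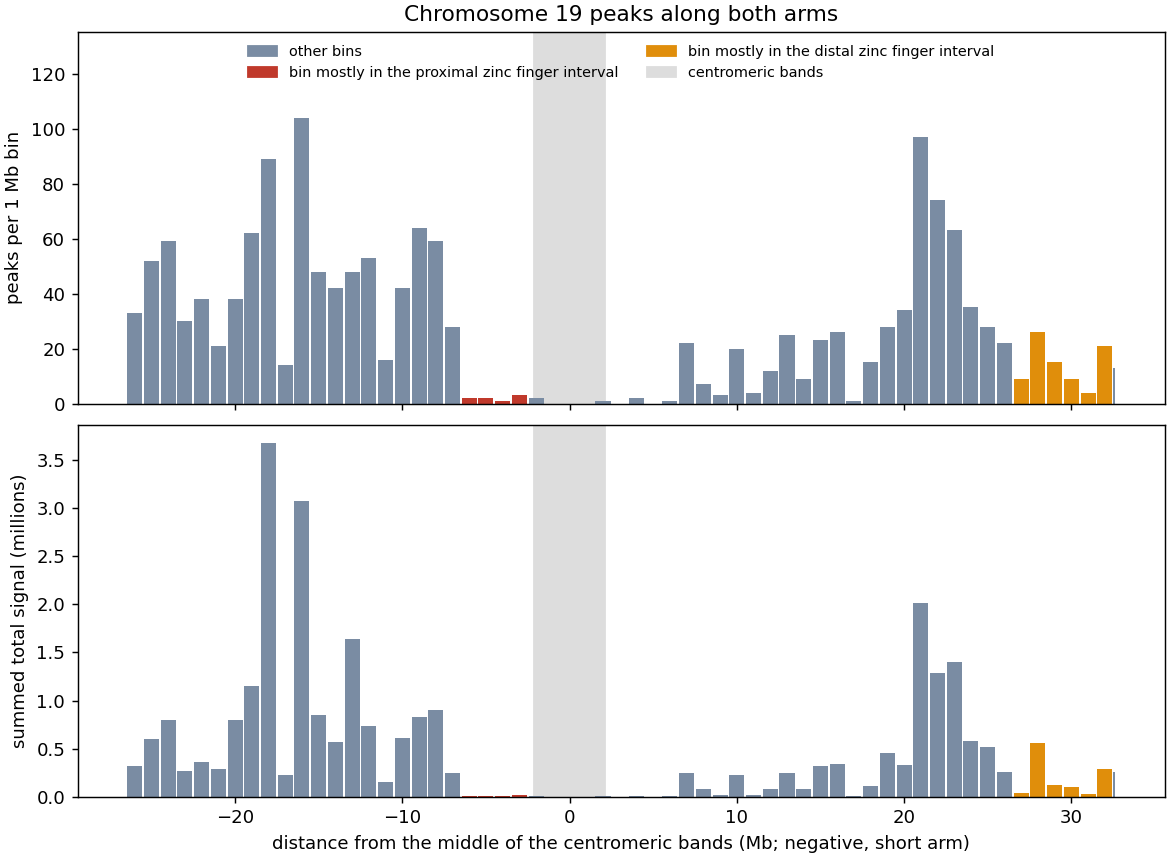
Peaks per 1 Mb bin (upper panel) and total signal summed per bin (lower panel) against distance from the middle of the centromeric bands in Mb, with the short arm at negative distances. The 4 bins mostly in the proximal zinc finger interval hold 1 to 3 peaks each, while the highest bars are 104 and 97 peaks.

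The bins with the most peaks did not have the highest median maximum. The 4 bins with over 70 peaks had median maxima of 16 to 20, under the list's median of 22. In them 128 of 364 peaks (35.2%) had a maximum at or under 14, the lower quartile of the list, against 302 of 1235 (24.5%) in the chromosome's other bins and 25.7% in the whole list. The share was highest at 47000000 to 48000000 (41.2%) and lowest in the densest bin (30.8%). The limit of 70 differs from the 50 used above. Bins with 52 to 64 peaks had median maxima of 19 to 24, and 18.9% to 34.6% of their peaks were at or under 14. Some bins with fewer peaks had higher medians. The 14 peaks at 9000000 to 10000000 had a median maximum of 38.5, and the 26 peaks at 54000000 to 55000000 had one of 34.5. Both bins were picked out after their values were seen. The sparsest bins were not tall: non-centromeric bins with under 5 peaks, but not empty, had median maxima of 13 to 25. Median maxima also differed by run size. Peaks alone had a median maximum of 23 (415 peaks), those in runs of 2 to 7 had 22 (759 peaks), and those in runs of 8 or more had 19 (425 peaks), although the last held 40.3% of the signal and were longer, with a median of 1132 bp against 822 bp for peaks alone. By total signal the order differed: medians were 6506, 7431 and 7278, and 8.19%, 11.99% and 17.4% were in the top 10%. The densest bin likewise had a median total of 9437.5 and a median length of 1420.5 bp, above the chromosome's medians, while the bin with 97 peaks had a median total of 5820.

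**Figure D3:**
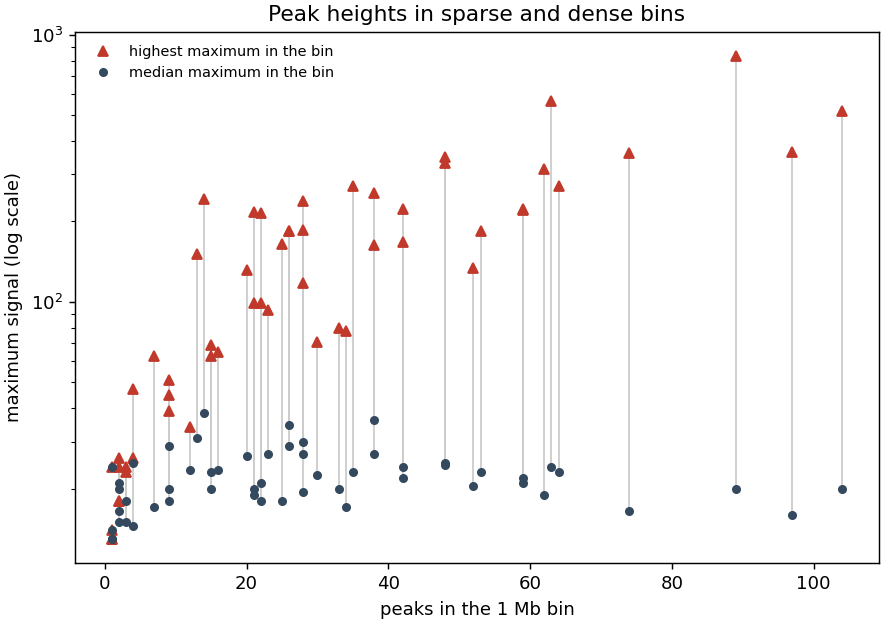
Median maximum signal (dark points) and highest maximum signal (red triangles) of the peaks in each 1 Mb bin, log scale, against the number of peaks in the bin. Bins with over 70 peaks have medians of 16 to 20, while their single highest peaks reach 361 to 830.

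The first interval of zinc finger genes, 19800000 to 24400000 next to the centromere on the short arm (called proximal here), was almost free of peaks. It held 12 peaks in 4.6 Mb, 0.750% of the chromosome's peaks (interval 0.388% to 1.31%), or 2.61 per Mb. How reads that match several places were handled is not given in the sources used here, and its part in low counts over duplicated genes, in both intervals and the KIR genes, was not tested. The rest of the chromosome, outside both zinc finger intervals and the centromeric bands, held 1504 peaks, or 34.2 per Mb, so that the proximal density was 0.0762 of it. Against the rest of its own arm, at 47.4 per Mb, the proximal interval was 18.2-fold lower. Peaks covered 0.191% of the interval and 4.54% of the rest. One peak, 28283962 to 28285586 with a total of 7551, lay in a centromeric band and belongs to none of these sets.

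The 12 proximal peaks were smaller than those of the rest by median, though not each one. Their totals ran from 3033 to 7731 with a median of 4326.5, beside 7319 in the rest, and their maxima from 12 to 26 with a median of 18, beside 22. The median length was 678 bp, beside 990 bp. None was in the top 10% of the list, against 12.7% in the rest, but 12 peaks are few for that share. None had a neighbour within 10 kb, against 76.1% in the rest. The strongest was at 23432552 to 23433445, with a total of 7731 and rank 762 on the chromosome. It was followed by 21203162 to 21204296 with 6188 and 20011091 to 20012264 with 5969. Stretches of 1264 kb (22019214 to 23282741) and 1040 kb (20163412 to 21203162) within the interval had no peak. At the left edge, the last peak before it, 19778881 to 19780142, had a total of 13039, and the first after it, 19886926 to 19887661, had 5961.

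The second interval, 52500000 to 58900000 near the end of the long arm (distal), was thinned much less. Its 82 peaks in 6.4 Mb made 12.8 per Mb, 5.13% of the chromosome's peaks (interval 4.10% to 6.33%). That was 2.67-fold lower than the rest, 1.83-fold lower than the rest of the long arm (23.5 per Mb), and 4.91 times the proximal density. Peaks covered 1.33% of it. The median total was 6064.5 and the median maximum 21, beside 7319 and 22 in the rest, and 8 of the 82 (9.76%) were in the top 10% by total. Of these peaks 39 (47.6%) had a neighbour within 10 kb, against 76.1% in the rest. None was in a run of 8 or more, against 28.3% in the rest, where peaks were denser.

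A large share of the distal signal came from a short stretch known mainly for genes of other kinds. The 0.5 Mb from 54500000 to 55000000, at the start of the leukocyte receptor complex, held 21 of the 82 peaks and 45.0% of the interval's signal. Without it the distal interval had 61 peaks, 10.3 per Mb or 3.31-fold lower than the rest, a covered share of 0.921%, and a median total of 4968; this window was chosen after the values were seen. The 3 strongest distal peaks all lay there. The peak at 54711250 to 54715696 (total 112452, maximum 184) is near RPS9, a ribosomal protein gene, the one at 54692852 to 54695489 (104437, 154) near TSEN34, a subunit of the tRNA splicing endonuclease, and the one at 54883388 to 54888023 (54571, 51) near LAIR1, an inhibitory collagen receptor of leukocytes. The next window, 55000000 to 55500000, held no peak; it is known for KIR receptors of natural killer cells and also for genes of myeloid receptors, among them LILRA1, LILRB1 and FCAR, the IgA receptor. From 56500000 to 58500000 the 4 windows held 1 to 3 peaks each, and the last 0.4 Mb of the interval held 10.

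**Figure D4:**
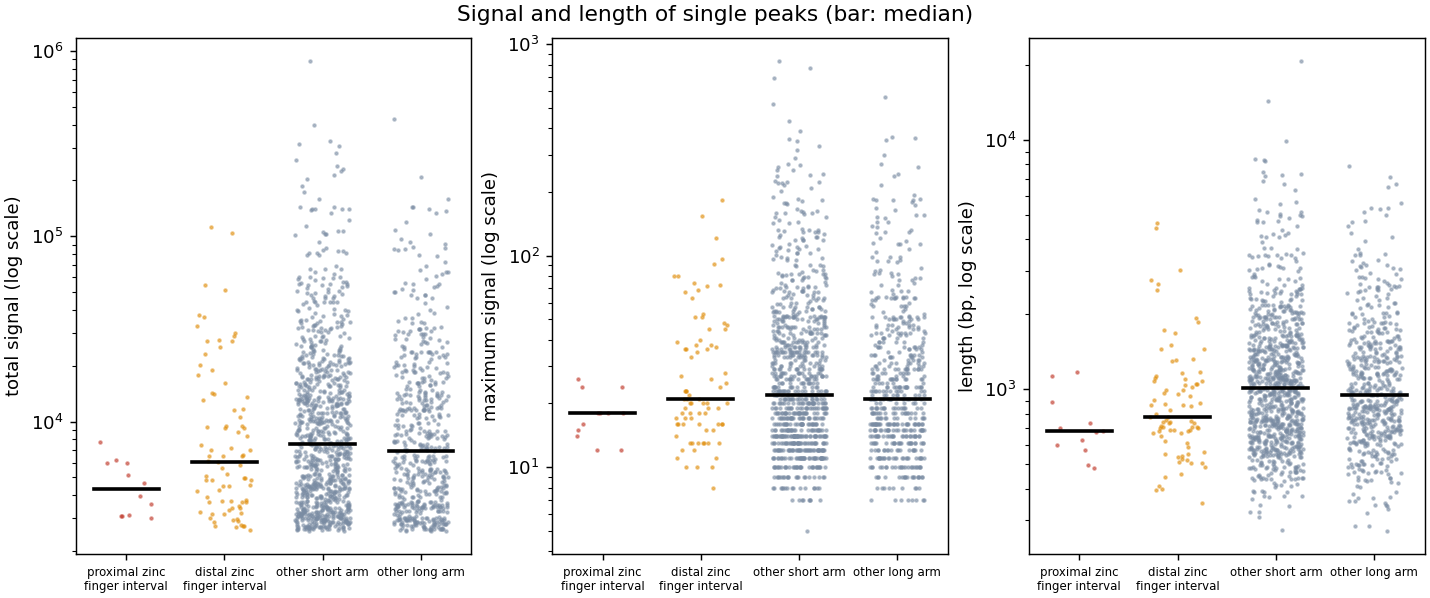
Total signal, maximum signal and length of every peak, log scales, in the proximal and distal zinc finger intervals and in the other parts of each arm; a point is 1 peak and the black bar is the median. The 12 proximal points have lower medians than the other sets, with no total above 7731, while distal points reach 112452.

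Genes could be set beside peaks only by cytogenetic band, with peaks in hg19 bands and genes in the bands of the same name on GRCh38. Band 19p12 has 35 protein-coding genes, of which 33 are zinc finger genes by symbol, and it held 10 peaks, or 0.286 per gene. The 3 terminal long-arm bands, 19q13.41 to 19q13.43, held 139 peaks for 266 genes (0.523 per gene), and the other bands used held 1041 for 953 (1.09 per gene). The low values were not limited to those bands. In 19q13.12, with 30 zinc finger genes among 86 and also TYROBP and HCST, the signalling adaptors of myeloid and natural killer cell receptors, there were 0.291 peaks per gene. In 19q13.31, with 23 among 49 and also PLAUR, the urokinase receptor, there were 0.327. The gene-poor band 19q12, with 1 zinc finger gene, had 2 peaks for 9 genes (0.222).

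Several bands with few zinc finger genes held more than 1 peak per gene. In 19q13.32, with 1 zinc finger gene among 87, there were 159 peaks or 1.83 per gene; the band holds C5AR1, the receptor for the complement fragment C5a, and BCL3, RELB and FOSB, genes of the NF-kappaB and AP-1 factors. Band 19p13.11, with KLF2 and JUND, had 1.59, and 19q13.33, with SPIB, CD37 and IRF3, had 1.36. Band 19p13.3, with the primary granule protein genes ELANE, PRTN3 and AZU1, had 270 peaks for 244 genes, or 1.11. Band 19q13.2, with 6 zinc finger genes among 137, had only 0.657, below the 0.714 of 19q13.41, where 30 of 70 are zinc finger genes.

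Bands 19p13.2 and 19p13.13 were left out of these counts because their lengths differ by over 10% between the builds, and they went the other way. Joined, which was done after the values were seen, they held 408 peaks for 197 genes, or 2.07 per gene, with 41 zinc finger genes (20.8%). Over the 15 bands used, Spearman's rho between the zinc finger share of the genes and peaks per gene was -0.82, and with this pair as another point it was -0.70. Between genes per Mb and peaks per Mb it was 0.63, and 0.54 with the pair. The bands differ in size and come from the same merged libraries, so these are descriptions.

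**Figure D5:**
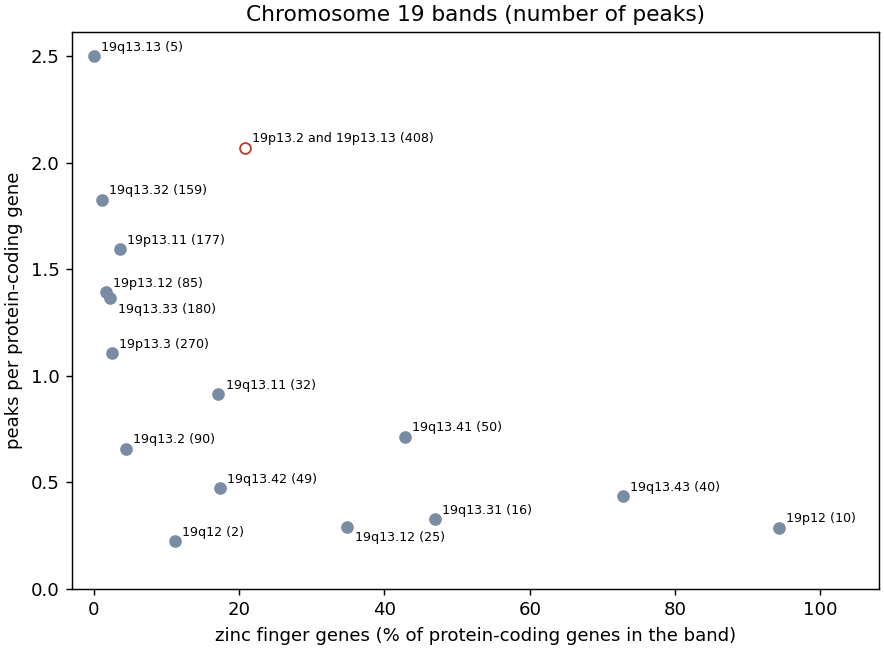
Peaks per protein-coding gene (y axis) against the share of zinc finger genes among a band's protein-coding genes in percent (x axis) for 15 bands of chromosome 19 (filled points) and for 19p13.2 and 19p13.13 together (open point), with the number of peaks in parentheses. Bands above 30% zinc finger genes lie between 0.286 and 0.714 peaks per gene, the open point lies at 2.07, and 19q13.13 rests on 2 genes.

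Promoters of zinc finger genes differed in sequence between band 19p12 and bands 19q13.41 to 19q13.43, whose edges are not those of the 2 intervals. The 27 zinc finger promoters of 19p12 had a median of 8 CG dinucleotides in 250 bases, and the 98 of 19q13.41 to 19q13.43 had 18, like the 827 promoters of other chromosome 19 genes outside these bands (18). CCGGAA was present in 20 of 27 (74.1%) and 42 of 98 (42.9%), against 19.3% of those other genes. AGGTCA was present in 5 of 27 (18.5%) and 5 of 98 (5.10%), against 9.92%. Zinc finger promoters elsewhere on the chromosome had a median of 15 CG dinucleotides, with CCGGAA in 26.9% and AGGTCA in 11.1%. A low CG median was not limited to zinc finger promoters. The other genes of 19q13.41 to 19q13.43 had a median of 8, with CCGGAA in 16.3% and AGGTCA in 13.0%. Whether promoter sequence bears on the difference in peaks was not tested. Duplicated genes share promoter sequence and are not independent, and a match is not a bound site.

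By hg19 band edges the strongest peaks were on 19p13.2, which held 9 of the chromosome's 10 highest totals and 397 peaks. First was 8553961 to 8574679, a peak of 20718 bp with a total of 876984 and a maximum of 830, over PRAM1, an adaptor protein gene of granulocytes first described as a PML-RARA target. Peaks on either side, at 8549738 to 8553836 (total 307911) and 8575201 to 8585121 (325007), and one at 8632150 to 8639403 (258891) over MYO1F, a myosin gene of neutrophils, belong to the same run of 20 peaks, which held 7.26% of the chromosome's signal. The third highest, 10675743 to 10680720 (398272), lies over CDKN2D, an inhibitor of cyclin-dependent kinases, and the fifth, 10392738 to 10407083 (313030), over the ICAM genes. The seventh, 8778231 to 8781908, had a total of 282281. LYL1, a helix-loop-helix factor of blood progenitors, lies under the ninth, 13208283 to 13216703 (239857), and the immediate early gene IER2 under the tenth, 13259639 to 13267936 (231560). Both peaks are in 19p13.2 on hg19, but LYL1 is in 19p13.13 by the GRCh38 bands. The exception on the long arm was the second, 49135604 to 49143458 (426858, maximum 565), over DBP, a circadian leucine zipper factor. By maximum the 5 highest were 830 (over PRAM1), 773 (beside it), 691 (8778231 to 8781908), 565 (DBP) and 520 (CDKN2D).

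The 5 largest runs took in some of these loci (PRAM1, MYO1F, the ICAM genes and DBP) but not CDKN2D, LYL1 or IER2. The chromosome had 695 runs counting single peaks, of which 153 had 3 or more peaks and 33 had 8 or more. None of the 33 was in a zinc finger interval, but these intervals held only 0.750% and 5.13% of the chromosome's peaks. The longest, 10360818 to 10547377, held 39 peaks and 6.05% of the signal in the ICAM to TYK2 stretch. Next were 48944918 to 49017566 with 25 peaks, 8746395 to 8813735 with 22, 49086951 to 49184674 with 21 around DBP, and 8545334 to 8658104 with 20 around PRAM1. Peaks covered 56.0% of the first of these and 59.2% of the last. Signal did not follow the number of peaks: the run of 25 had a summed total of 360497 and the run of 20 had 2045160.

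Gene models on hg19 were at hand for 14 chromosome 19 genes with 17 TSSs, a sample set by software examples. The share over all genes could not be had, so the counts below are no rate for the chromosome. A peak lay within 2 kb of a TSS in 9 of the 14, and over a TSS in 7. KEAP1 had the strongest, 10612326 to 10614246 with a total of 52744 and a maximum of 123. A1BG, a plasma protein gene in the distal interval, had a peak over 1 of its 2 TSSs, 58873180 to 58874503 with 29960. ZNF333 had 15669 at 14800465 to 14801271 and ZNF443 had 12222 at 12551201 to 12552147, so that 2 of 3 zinc finger genes had a TSS peak, both outside the 2 intervals. ANO8 (11698), PDE4A (6826), a cyclic AMP phosphodiesterase gene, and SARS2 (4791), the mitochondrial seryl-tRNA synthetase gene, also had a peak over a TSS, and CTXN1 and SPTBN4 had one 452 and 591 bp away. The nearest peak lay 2743 bp from EPN1, an endocytic adaptor gene, 14374 bp from APOE, the apolipoprotein E gene, and 88267 bp from KLK10, a kallikrein gene. It lay 191917 bp from DPRX, a homeobox gene of the early embryo in the distal interval, within a gap of 720 kb.

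The longest gap of all, 24270347 to 28283962 (4014 kb), spans the centromere. The next, 30336418 to 32912652 (2576 kb) and 28285586 to 30078491 (1793 kb), follow it on the long arm, mostly in 19q12. Another of 1040 kb, 42927262 to 43967309, lies where the pregnancy-specific glycoprotein genes are known to be, and the bin at 43000000 to 44000000 held 1 peak.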

How the data were processed

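CUT&Tag with an antibody to PML-RARA was done on 2 samples of NB4 cells that form 1 group; the labels do not say whether they came from separate cultures. Per the submitters' processing notes, the authors used Trimmomatic, Bowtie2, SAMtools, bedtools and SEACR on hg19. Not given in the sources used here: versions, the SEACR threshold, any control track, the handling of reads with several matches, and how the lists were joined. The file deposited by the authors holds coverage signal per peak: the column headed width is read here as total signal, since it exceeds the length in all 20085 rows and never exceeds length times maximum, and the column headed peak as maximum signal. No peaks overlapped.

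Peaks were counted by midpoint, in 1 Mb bins, in the 2 zinc finger intervals and in bands. Bands came from circlize 0.4.16, chromosome lengths from GenomeInfoDb 1.38.1, and gene models from GenomicFeatures 1.54.1 (hg19) and pyranges 0.1.4, whose table names no build and was read as hg19. Genes were counted on GRCh38.p14 from RefSeq; promoter windows matched 1185 of 1451 coding genes of chromosome 19, at the start listed first. Gene names beside peaks are general knowledge of hg19, not a computed overlap. The order of 10 such names along the chromosome was the same as that of their peaks. The names were given from known positions, so the order cannot check an overlap. All 270 zinc finger genes are called by symbol. Statistics used Python 3.11.15, pandas 2.3.3 and scipy 1.17.1, and the counting was tested on simulated data. No test was run, since 1 merged list has no replicates to test; regions were compared by counts, medians and counting intervals. The named items are the 10 peaks of highest total and the 5 of highest maximum, the 5 densest bins, the empty bins, the 5 largest runs, the 3 strongest peaks of each zinc finger interval, every gene with an hg19 model, and up to 4 listed genes per band. The intervals, gene lists and this rule were chosen with earlier results of these data known. The alternatives changed the length used, thresholds, bin size, interval edges, run gap, gene set and TSS window.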

Additional observations from a re-analysis of the deposited data

How the results depend on the processing

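Of 97 alternative values for 24 results, 73 stayed within counting error or within 1.5 times. No ratio of peak density, covered share or peaks per gene changed side. The order of the median maxima of the distal interval and the rest, 21 and 22, did change. They were 23 and 22 with bands, 42.5 and 39 with the stricter total, and both 22 with edges moved outward. The distal value stayed lower with edges moved inward (21.5 and 22) and with neighbours merged (20 and 25). The 4.36-fold density of chromosome 19 became 5.12 without centromeric, variable and stalk bands, 4.69 for peaks at or above the list's median total, and 4.11 with neighbours within 1 kb merged. With edges moved 0.5 Mb outward, the proximal density over the rest went from 0.0762 to 0.158 and the distal from 0.374 to 0.492, and the covered shares from 0.0420 to 0.0995 and from 0.293 to 0.407. With bands in place of the intervals the distal ratios were 0.531 and 0.462. Without the window at 54500000, chosen after seeing the data, the distal covered share over the rest was 0.203. The stricter total (6479 or more) left only the strongest proximal peak, with a total of 7731, which is too few for a median. On that peak alone rest a proximal density of 0.0117 and a covered share of 0.00573 over the rest. By construction the stricter total raised distal medians to a total of 13844, a maximum of 42.5 and a length of 1108 bp. In the rest the medians rose to 14902, 39 and 1450 bp. Merging gave medians of 9270, 25 and 1106 bp in the rest. Runs of 8 or more numbered 17 with gaps of 5 kb and 53 with 20 kb, instead of 33. Counting all genes, 19p12 had 0.0850 of the other bands' peaks per gene, instead of 0.262; with 19p13.2 and 19p13.13 added together to the other bands, after seeing the data, it had 0.227, and the terminal bands 0.415 instead of 0.478. Apart from the stricter threshold, where fewer peaks are counted, and the edges, which take in neighbouring ground, the cause was not tested. No replicate could be left out of 1 merged list. No paired analysis was possible because the list carries no value per replicate. The depth is unknown, so whether the empty bins lack signal or lie under the caller's threshold was not detectable here.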
